A study of Mus musculus with 23 samples.

Results

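The genes described here are the noncoding hosts of small nucleolar RNAs (snoRNAs) that were listed by name: Gas5, Snhg1, Snhg3, Snhg4, Snhg5, Snhg6, Snhg8, Snhg12, Snhg15 and Snhg17. Of these 10 genes, 6 had an identifier in the count files, which hold 38293 genes, and 5 of those 6 had enough reads to be tested among 16087 genes. Snhg1, Snhg4, Snhg6 and Snhg8 were not analysed here. Snhg3 had 1 to 11 counts per library and is given by level only. The genes were listed by name, and the rule uses no measured value. The list was made with earlier results of these data known, so the direction of these genes is no independent evidence.

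A snoRNA host gene is transcribed and spliced like a messenger RNA gene, and the snoRNAs are cut out of its introns to guide chemical modification of ribosomal RNA. The joined exons of these hosts carry no long open reading frame, yet they reach ribosomes, and the short reading frames near their start end in stop codons that lie ahead of later exon junctions. Such transcripts are known substrates of nonsense-mediated decay (NMD), a surveillance pathway that destroys RNA when a ribosome stops well ahead of an exon junction, and that needs ongoing translation. Cycloheximide blocks the elongating ribosome and is commonly used to show that an RNA is lost in a translation-dependent way. Gas5 is in addition known as a gene whose transcript starts with a pyrimidine tract, as do the messenger RNAs of ribosomal proteins.

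RNA was counted in 23 libraries of cultured mouse cerebrocortical astrocytes, isolated from the neocortex at postnatal day 3 and stated to be over 95% astrocytes. The genetic background was a hybrid, with 129/OLa+129/Sv+ on one side and BALB/c+C57BL/6 on the other, and all cultures grew for 7 days with 10% serum stripped of thyroid hormone. All of them, controls included, then spent 24 h in 0.1% of that serum before treatment. Of the 6 groups, 4 were harvested at 6 h, namely control, T3, CHX and the combination of CHX and T3 (called 6 h CHX plus T3), and 2 at 24 h, namely control and T3. There were 3 libraries in 24 h T3 and 4 in each other group. T3 is triiodothyronine, the active thyroid hormone, given at 10 nM. CHX, which is read here as cycloheximide, was given at 8 µg/ml, 30 min before T3 in the combined group. The labels do not state whether the libraries of a group stem from separate cultures, and a p-value here measures only how far these libraries spread, which could be technical.

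Libraries held 13843040 to 22997873 gene counts. The sum of 13 astrocyte markers was 7860 to 12600 CPM per library, where CPM are counts relative to the TMM-scaled library size, and of that list only Gjb6 lay under 1 CPM on average. Summed markers reached 32.2 to 104 CPM for 10 microglial genes, 533 to 1090 CPM for 9 oligodendrocyte lineage genes, 435 to 590 CPM for 10 neuronal genes and 1410 to 3010 CPM for 10 vascular and meningeal genes. Among the defining markers, Aif1 and P2ry12 of microglia, Mog of oligodendrocytes, Rbfox3 and Slc17a7 of neurons and Pecam1 and Cldn5 of endothelium averaged under 1 CPM over all libraries, although the mean of P2ry12 was 1.09 CPM in 24 h control and 1.12 CPM in 24 h T3 and that of Rbfox3 was 1.37 CPM in 24 h control. Per the file names, all 6 h control and 6 h T3 libraries and 6 h CHX replicates 1, 2 and 3 came from lane 5, 24 h T3 replicate 3 from lane 7, and the other libraries from lane 6. In bulk RNA, fewer cells of a type and less RNA per cell cannot be told apart.

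The first reading frames of the 5 tested hosts are shown because the position of the first stop codon relative to the exon junctions is what NMD is known to read. They were taken from 1 reference transcript per gene in GENCODE M21 (GRCm38), from the first ATG with a stop codon in frame, and the capitals mark the start and stop codons. The genes lie at chr1:161034422-161038539 on the plus strand (Gas5), chr9:88521050-88522929 on the minus strand (Snhg5), chr4:132308623-132311024 on the plus strand (Snhg12), chr11:6525591-6528760 on the minus strand (Snhg15) and chr2:158353700-158361580 on the minus strand (Snhg17).
Gas5: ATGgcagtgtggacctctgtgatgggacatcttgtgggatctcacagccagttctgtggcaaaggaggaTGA
Snhg5: ATGaccaagTGA
Snhg12: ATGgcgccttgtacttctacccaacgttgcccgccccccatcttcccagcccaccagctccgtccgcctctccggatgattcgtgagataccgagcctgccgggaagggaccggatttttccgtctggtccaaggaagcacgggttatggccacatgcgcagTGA
Snhg15: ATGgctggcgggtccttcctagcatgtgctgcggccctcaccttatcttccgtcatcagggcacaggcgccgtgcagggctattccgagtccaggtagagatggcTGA
Snhg17: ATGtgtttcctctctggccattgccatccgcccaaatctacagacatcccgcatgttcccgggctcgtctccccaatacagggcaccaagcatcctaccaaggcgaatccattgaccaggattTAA

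These frames hold 23 codons before the stop in Gas5, 3 in Snhg5, 54 in Snhg12, 35 in Snhg15 and 41 in Snhg17. After the first stop codon, exon junctions more than 50 bases downstream number 7 in Gas5, 4 in Snhg5, 3 in Snhg12, 1 in Snhg15 and 4 in Snhg17. At least 1 such junction is present in 71.5% of 9082 spliced noncoding genes of the annotation, so the feature is common among noncoding RNAs. The longest reading frame gives another picture for Snhg5, Snhg15 and Snhg17, where no junction follows it at any distance. In Gas5, 5 junctions follow it at any distance. In Snhg12 the longest frame is the first frame, and 4 junctions follow it at any distance, 3 of them more than 50 bases downstream. Whether any of these frames is translated was not measured.

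**Figure D1:**
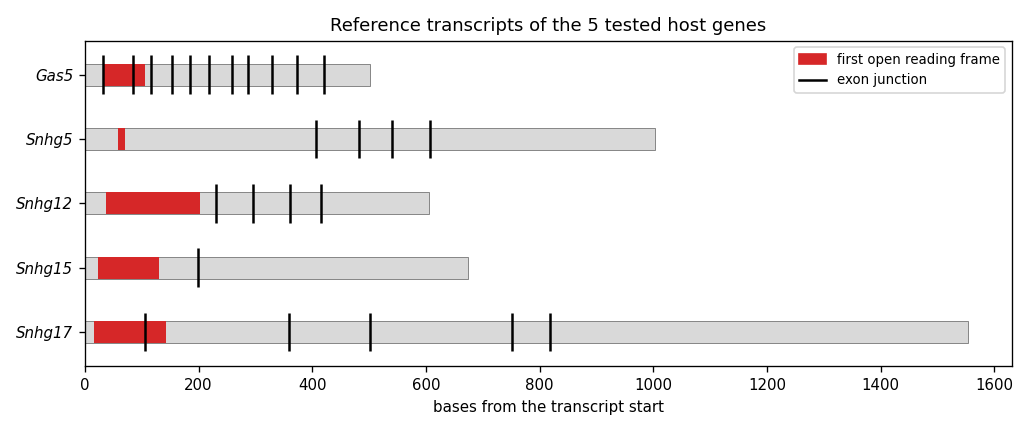
Reference transcripts of the 5 tested host genes drawn to scale, in bases from the transcript start. Red marks the first open reading frame and black lines mark exon junctions. Snhg15 has a single junction, 68 bases after the first stop, and Gas5 has 9 junctions after its first stop.

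The start sites of the same genes are shown because a C followed by a run of pyrimidines at the transcript start is the mark of the translation-controlled class to which Gas5 is known to belong. Each line covers 30 bases before and 40 bases from the start site in RefSeq (GRCm38.p6), on the strand of the gene. Capitals mark a C within 3 bases of the start site together with at least 4 further C or T bases in a row, searched on the gene's strand only.
Gas5, chr1:161035136-161035205: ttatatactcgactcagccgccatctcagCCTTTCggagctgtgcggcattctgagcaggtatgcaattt
Snhg12, chr4:132308648-132308717: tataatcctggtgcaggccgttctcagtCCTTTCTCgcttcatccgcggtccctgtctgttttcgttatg
Snhg5, chr9:88522858-88522927: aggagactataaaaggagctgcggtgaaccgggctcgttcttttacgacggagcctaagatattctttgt
Snhg15, chr11:6528721-6528790: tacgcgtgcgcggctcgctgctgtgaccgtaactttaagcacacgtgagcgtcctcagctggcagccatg
Snhg17, chr2:158361483-158361552: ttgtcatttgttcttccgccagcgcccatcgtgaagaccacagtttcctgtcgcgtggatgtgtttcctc

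The tract was found at 1 of the RefSeq starts of Gas5 and at the start of Snhg12. No match was found within 3 bases of the starts of Snhg5, Snhg15 and Snhg17. Runs farther from the start, as in the windows of Snhg5 and Snhg17, were not counted, so the result depends on the annotated start. Of the 8 listed hosts with a RefSeq promoter, 4 had it (Gas5, Snhg3, Snhg8 and Snhg12). By the same rule it was present at 11.5% of 32851 promoters, in 13.5% of 27025 genes and in 40.6% of 64 genes of cytosolic ribosomal proteins. The pair of tested genes with the tract did not share a response size, as the values below show.

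The first comparison asked how the hosts responded to CHX without T3. All 5 tested hosts were higher in 6 h CHX than in 6 h control, from 1.37-fold for Gas5 to 10.1-fold for Snhg15. Of all genes tested, 37% were higher and 30.6% were lower, so the direction alone was shared with many genes. The median log2 fold change of the 5 hosts was 2.21, beside 0.06 for all genes. Each of the 5 had at least 54 counts in every library, so none passed the filter on low counts through the CHX groups alone. The 5 hosts differed in size, and the share of all genes with a larger log2 fold change was 29.8% for Gas5, 3.98% for Snhg5, 1.72% for Snhg12, 1.29% for Snhg17 and 0.454% for Snhg15.

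Snhg15, whose gene holds Snora9, an H/ACA-type snoRNA, moved most. Its level was 3.34, 3.94, 4.07 and 4.70 CPM in 6 h control replicates 1 to 4 and 42.7, 38.6, 38.1 and 42.0 CPM in 6 h CHX replicates 1 to 4. Every CHX library stood far above every control library. The log2 fold change was 3.34 ± 0.12 (SE), with an adjusted p of 2.91e-17 by edgeR's quasi-likelihood test.

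Snhg17 hosts 3 annotated snoRNA genes (Gm23925, Gm26003 and Gm24411). It was measured at 8.78, 10.1, 11.1 and 6.36 CPM in the control replicates and at 47.8, 48.7, 50.1 and 51.0 CPM in the CHX replicates. The groups were far apart, and control replicate 4 was the low library of its group. The log2 fold change was 2.43 ± 0.14 (edgeR, adjusted p = 9.32e-14).

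Snhg12 carries Snora44, Snora61, Snora16a and Snord99 in its introns. Its control libraries were close together at 8.78, 8.83, 8.96 and 9.01 CPM, and its CHX libraries lay at 42.0, 40.0, 40.4 and 42.1 CPM. The groups did not overlap, and the log2 fold change was 2.21 ± 0.09 (edgeR, adjusted p = 6.02e-17).

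Snhg5 is the host of Snord50a and Snord50b, a pair of C/D-type snoRNAs. It stood at 9.22, 10.0, 10.3 and 10.8 CPM in control libraries and at 31.7, 31.7, 29.4 and 33.6 CPM under CHX, again without overlap. Its log2 fold change was 1.65 ± 0.08 (edgeR, adjusted p = 1.02e-14).

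Gas5, named for its accumulation in growth-arrested cells, has 10 annotated snoRNA entries in its introns, among them Snord47, Snord78 and Snord80. It was the most abundant of the hosts in counts and the one that moved least. It had 64.3, 67.9, 63.3 and 84.5 CPM in control replicates 1 to 4 and 88.5, 89.5, 94.4 and 111 CPM in CHX replicates 1 to 4. The groups did not overlap, but control replicate 4 came within a few CPM of the lowest CHX library, and CHX replicate 4, the only library of its group from lane 6, was the highest. The log2 fold change was 0.46 ± 0.11 (edgeR, adjusted p = 0.000502).

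Snhg3, the host of Snora73a and Snora73b, had few counts in every library. It had 4, 4, 6 and 11 counts in the control libraries and 1, 6, 4 and 6 counts in the CHX libraries, or 0.417 ± 0.282 and 0.230 ± 0.129 CPM (SD, n = 4). Over all 23 libraries it ran from 0.0496 to 0.833 CPM. It did not pass the filter on low counts and was not tested. Exons of the lincRNA Gm17300 on the opposite strand cover 71.5% of its exon bases and exons of Rcc1, a gene next to it on the same strand, cover 13.7%. Since the library kit did not mark strand, its reads cannot be told apart from those of Gm17300. Depending on the counting settings, which are not given, reads on shared bases may have been left out. The low counts of Snhg3 therefore need not mean a low level.

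**Figure D2:**
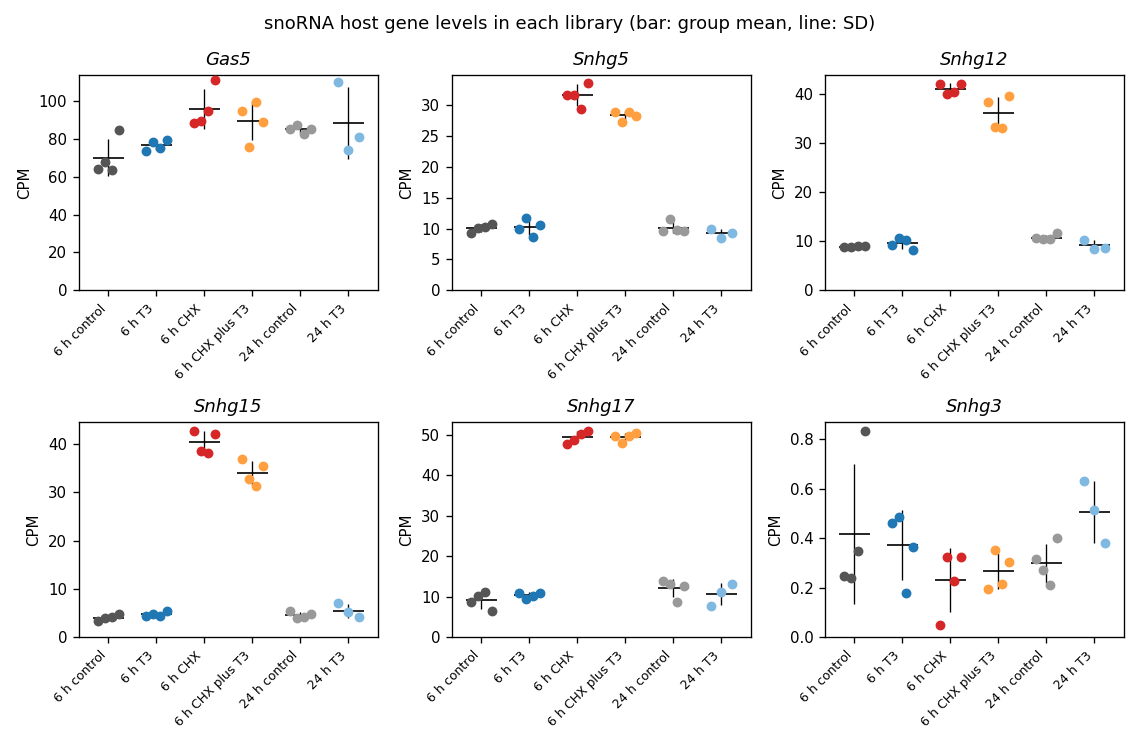
Levels in CPM (vertical axis, linear from 0) of the 5 tested hosts and of Snhg3 in each of the 23 libraries, by group. Points are libraries, horizontal bars are group means and vertical lines are SD. Both CHX groups of Snhg5, Snhg12, Snhg15 and Snhg17 lie far above the 4 other groups, whereas Gas5 groups lie close together and Snhg3 stays under 1 CPM.

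The sizes of the response were compared between hosts through the log2 ratio of 2 hosts within each library, with an exact permutation test (two-sided) over the 70 splits of 4 against 4 libraries. In 9 of 10 pairs the ratio changed with CHX at p = 0.0286, the smallest this design allows, or 0.0318 after adjustment over the 10 pairs (exact permutation test). Snhg15 rose relative to each other host, by 1.13 on the log2 scale against Snhg12, 1.69 against Snhg5 and 2.88 against Gas5. Its change was smallest against Snhg17, where the log2 ratio of Snhg17 to Snhg15 changed by −0.87. Snhg5, Snhg12 and Snhg17 rose relative to Gas5 by 1.19, 1.75 and 2.01. The pair that did not pass was Snhg17 and Snhg12, with a change of 0.26 and p = 0.229 (exact permutation test). With T3 present, 8 of 10 pairs were at p = 0.0286, or 0.0358 after adjustment (exact permutation test). The other pairs there were Snhg5 and Snhg12, with a change of 0.44 and p = 0.0571 (adjusted 0.0634, exact permutation test), and Snhg12 and Snhg17, with a change of 0.35 and p = 0.0857 (exact permutation test). This comparison of pairs was added after the values had been seen, so its p-values are no independent evidence. The 10 pairs share hosts, so their ratios depend on each other. A p of 0.0286 here means only that the ratios of the 2 groups did not overlap.

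Levels relative to length depended on the length used. In 6 h control libraries the mean per kilobase of all annotated exons was 18.6 CPM for Gas5, 5.82 for Snhg5, 3.70 for Snhg12, 2.95 for Snhg15 and 1.29 for Snhg17. Under CHX the same measure was 29.7 CPM per kilobase for Snhg15 and 25.5 for Gas5, whose libraries overlapped, 18.3 for Snhg5 and 17.1 for Snhg12, which also overlapped, and 7.01 for Snhg17. Per kilobase of the reference transcript alone, Gas5 kept the first place, at 139 CPM in 6 h control and 191 CPM under CHX, and Snhg15 went from 5.94 to 59.8 CPM. Annotated exons, retained introns included, cover 91.3% of the gene span of Gas5, 92.0% of Snhg5, 100% of Snhg12, 42.9% of Snhg15 and 89.5% of Snhg17. Reads from unspliced RNA of Gas5, Snhg5, Snhg12, Snhg15 and Snhg17 can therefore enter these counts. For Snhg15, annotated exons cover 1359 bases, beside 675 bases in its reference transcript. Spliced and unspliced RNA cannot be told apart for any of these hosts.

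The CHX calls held within lane 5, where the log2 fold changes were 0.33 for Gas5, 1.57 for Snhg5, 2.14 for Snhg12, 3.26 for Snhg15 and 2.36 for Snhg17. Scaling by library totals alone gave 0.55 to 3.42 and upper-quartile scaling gave 0.39 to 3.27 over the same hosts. Beside the host genes, summed astrocyte markers were lower under CHX (8230 to 9910 CPM per library) than in 6 h control (10700 to 11600 CPM), and 9 of 13 astrocyte markers were called lower, led by Fgfr3 (−0.78), Atp1b2 (−0.66), Slc1a3 (−0.28) and Slc1a2 (−0.64) on the log2 scale. Oligodendrocyte lineage markers summed to 553 to 618 CPM under CHX and 902 to 1020 CPM in control, with 4 of 8 lower (Olig2, Olig1, Cnp and Cspg4) and Sox10 among those higher. Vascular and meningeal markers summed to 1410 to 1850 and 2150 to 2280 CPM, with 3 of 8 lower (Pdgfrb, Acta2 and Flt1) and Kdr higher. Neuronal markers summed to 450 to 505 and 498 to 541 CPM, with Tubb3 lower and Gad1 higher and 7 of 9 not passing. Microglial markers summed to 35.3 to 53.6 and 50.0 to 62.1 CPM, with Cx3cr1, Itgam and Cd68 lower and 7 of 10 not passing. A measure of the libraries moved with CHX too: alignments that were not unique, which were not counted to a gene, made up 30.7 to 32.9% of the entries in the 8 CHX libraries and 36.2 to 42.3% in the 15 others. The part of these shifts in the host genes' response was not tested.

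With T3 present, the comparison of 6 h CHX plus T3 with 6 h T3 raised 4 of the 5 hosts, where 36.3% of all genes were called higher. Snhg15 was at 4.36, 4.72, 4.37 and 5.37 CPM with T3 alone and at 36.8, 32.7, 31.3 and 35.4 CPM with CHX plus T3, a log2 fold change of 2.85 ± 0.12. Snhg17 was at 10.9, 9.38, 10.1 and 10.9 CPM and at 49.7, 48.0, 49.7 and 50.4 CPM, a log2 fold change of 2.26 ± 0.13. For both hosts, no treated library came near an untreated one.

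Snhg12 was at 9.33, 10.6, 10.2 and 8.14 CPM with T3 alone and at 38.3, 33.3, 33.1 and 39.7 CPM with CHX plus T3, with a log2 fold change of 1.92 ± 0.08. Snhg5 was at 10.0, 11.7, 8.68 and 10.6 CPM and at 28.9, 27.3, 28.9 and 28.2 CPM, with a log2 fold change of 1.46 ± 0.08. The groups of Snhg12 and of Snhg5 did not overlap, and the adjusted p of these 4 hosts was at most 2.46e-13 in edgeR.

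Gas5 was at 73.5, 78.3, 75.1 and 79.4 CPM with T3 alone and at 94.9, 75.5, 99.3 and 88.8 CPM with CHX plus T3. Replicate 2 of the combined group fell within the T3 range, and the groups overlapped. Its log2 fold change was 0.23 ± 0.10 and did not pass (edgeR, adjusted p = 0.0588). It passed without CHX plus T3 replicate 2 (0.30, adjusted p = 0.0170) and was −0.07 (adjusted p = 0.801) with the lane as a covariate. All CHX plus T3 libraries came from lane 6 and all 6 h T3 libraries from lane 5, so that in this comparison the lane is bridged only by 6 h CHX replicate 4. The other 4 hosts stayed higher with the lane covariate, with log2 fold changes of 1.34 to 2.77.

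Many cell type markers were lower in this comparison as well. Summed astrocyte markers were at 7860 to 8380 CPM with CHX plus T3 and at 12400 to 12600 CPM with T3 alone, and 9 of 13 were called lower (median log2 fold change −0.38). Oligodendrocyte lineage markers summed to 533 to 565 and 873 to 957 CPM, with 6 of 8 lower (median −0.78), and microglial markers to 32.2 to 37.0 and 62.8 to 71.1 CPM, with 7 of 10 lower (median −1.01). Neuronal markers summed to 435 to 480 and 518 to 587 CPM, with 3 of 9 lower, and vascular and meningeal markers to 1690 to 1850 and 1840 to 2110 CPM, with 3 of 8 lower and 1 higher. Their part in the hosts' response was not tested.

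The next question was whether T3 changed the response to CHX. The 5 hosts all had a smaller log2 response with T3, with differences of −0.17 for Snhg17, −0.19 for Snhg5, −0.23 for Gas5, −0.29 for Snhg12 and −0.48 for Snhg15, and none passed in edgeR, where 1.22% of all genes did. Before adjustment 2 hosts were under 0.05, Snhg12 and Snhg15 (adjusted p in edgeR 0.253 and 0.186), and DESeq2 called 0. The 95% interval of the difference for Snhg15 ran from −0.85 to −0.12. A negative difference was not particular to the hosts. The difference was positive in 0 of 10 microglial markers (median −0.60) and 0 of 9 neuronal markers (median −0.79). In these markers it was not a smaller rise. The median log2 fold change under CHX was −0.39 without T3 and −1.01 with T3 for microglial markers. For neuronal markers it was 0 and −0.18. The difference was positive in 12 of 29 listed protein-coding snoRNA hosts (median −0.01), and the median of all genes was 0. All CHX plus T3 libraries came from lane 6, and with the lane as a covariate 966 genes passed beside 196. Leaving out 6 h control replicate 4 and 24 h T3 replicate 1 together, an alternative chosen after seeing the data, gave Snhg15 a difference of −0.56 that passed (edgeR, adjusted p = 0.0397).

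**Figure D3:**
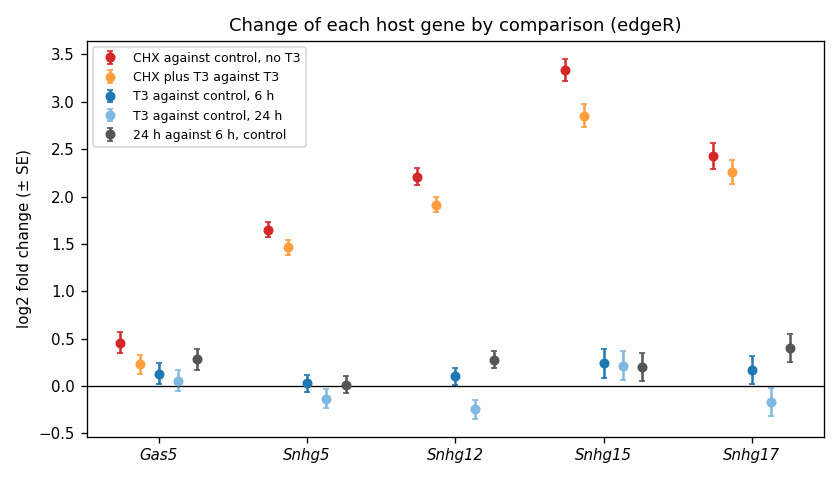
Log2 fold changes of the 5 tested hosts with their standard errors (vertical axis) in 5 comparisons, marked by colour. The CHX responses of Snhg5, Snhg12, Snhg15 and Snhg17 lie between 1.46 and 3.34, while the T3 and time responses of all 5 hosts lie between −0.24 and 0.40.

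T3 alone at 6 h changed none of the 5 hosts in edgeR, where 3.77% of all genes passed. No host had an unadjusted p under 0.05, and DESeq2 called 0. The log2 fold changes were 0.03 to 0.24, and the 95% intervals bound them: −0.09 to 0.35 for Gas5, −0.16 to 0.21 for Snhg5, −0.09 to 0.30 for Snhg12, −0.06 to 0.54 for Snhg15 and −0.14 to 0.48 for Snhg17. Control and T3 libraries of every host overlapped.

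Under CHX, T3 called none of the hosts, beside 1.29% of all genes. Snhg5, Snhg12 and Snhg15 had log2 fold changes of −0.16, −0.19 and −0.24, beside a median of −0.01 for all genes. The adjusted p in edgeR was 0.397, 0.289 and 0.298. The CHX and CHX plus T3 libraries of Snhg5, Snhg12 and Snhg15 did not overlap, whereas those of Gas5 and Snhg17 did. Before adjustment 2 hosts, Snhg12 and Snhg15, were under 0.05 in edgeR, and DESeq2 called 0. Of the libraries compared, all 4 with CHX plus T3 and 6 h CHX replicate 4 were from lane 6. Snhg17 differed by 0.00 ± 0.12 (edgeR, adjusted p = 0.998), with a 95% interval of −0.25 to 0.25.

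At 24 h, T3 changed 0 of the 5 hosts in edgeR and 0 in DESeq2, where 7.09% of all genes passed in edgeR. Snhg12 was at 10.6, 10.4, 10.4 and 11.6 CPM in 24 h control and at 10.3, 8.41 and 8.67 CPM in 24 h T3. These values did not overlap, and its log2 fold change of −0.24 ± 0.10 had an adjusted p of 0.141 in edgeR. It was the 1 host under 0.05 before adjustment. Gas5 was at 85.3, 87.4, 82.3 and 85.1 CPM in control and at 110, 74.2 and 81.0 CPM with T3. T3 replicate 1 stood apart from the others, and without it the log2 fold change of Gas5 went from 0.05 to −0.13.

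Snhg17 showed the opposite pattern over the same libraries, with 13.9, 13.2, 8.78 and 12.7 CPM in 24 h control and 7.75, 11.0 and 13.1 CPM in 24 h T3, replicate 1 being the lowest. Snhg5 stood at 9.62, 11.5, 9.79 and 9.65 CPM and at 9.95, 8.47 and 9.35 CPM. Snhg15 stood at 5.41, 4.05, 4.20 and 4.79 CPM and at 7.06, 5.13 and 4.13 CPM. The 2 groups of each of these 3 hosts overlapped. The T3 effect at 24 h minus that at 6 h passed for none of the hosts and for 0.839% of all genes in edgeR. These differences ran from −0.35 (Snhg12, adjusted p = 0.217 in edgeR) to −0.02 (Snhg15), Snhg12 was the 1 host under 0.05 before adjustment, and DESeq2 called 0.

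Between 6 h and 24 h without T3, 3 of 5 hosts were called higher, where 28.2% of all genes were. These were Snhg17 (0.40 ± 0.15, adjusted p = 0.0245), Gas5 (0.28 ± 0.11, adjusted p = 0.0259) and Snhg12 (0.28 ± 0.09, adjusted p = 0.0132) in edgeR. Only the values of Snhg12 did not overlap between the 2 times, and the share of all genes without overlap was not counted. Snhg5 (0.01 ± 0.09) and Snhg15 (0.20 ± 0.15) did not pass. All 6 h control libraries were from lane 5 and all 24 h control libraries from lane 6, and with the lane as a covariate, estimated through 6 h CHX replicate 4, 0 of 5 hosts passed. The log2 fold change was then 0.34 for Snhg17 (adjusted p = 0.305 in edgeR), 0.23 for Snhg12 (adjusted p = 0.300) and −0.01 for Gas5 (adjusted p = 0.979). Time and lane cannot be told apart in this comparison. Noncoding genes that the annotation does not tag as hosts of small RNAs were higher at 24 h in 43.3% of 712 cases. Markers of other cell types were also higher at 24 h: 6 of 9 neuronal (median log2 fold change 0.46), 4 of 8 oligodendrocyte lineage (0.56), 4 of 10 microglial (0.47) and 3 of 8 vascular and meningeal markers (−0.02) were called higher, beside 1, 2, 0 and 2 called lower. Of 13 astrocyte markers, 2 were higher and 4 lower. The summed levels in 6 h and 24 h control were 498 to 541 and 534 to 590 CPM for neuronal, 902 to 1020 and 819 to 1090 CPM for oligodendrocyte lineage, 50.0 to 62.1 and 50.3 to 104 CPM for microglial, 2150 to 2280 and 1870 to 2380 CPM for vascular and meningeal and 10700 to 11600 and 9940 to 11900 CPM for astrocyte markers. All of these ranges overlapped. The part of the marker shifts in the hosts' values was not tested.

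Gas5 was not called without any 1 of 6 h control replicates 1, 2 and 3, and Snhg17 was not called without any 1 of 6 h control replicates 1 and 4 or 24 h control replicates 1, 2 and 4. Scaling by library totals alone moved the median of all genes in this comparison from 0.00 to 0.11. With T3, 0 of 5 hosts changed with time in edgeR and in DESeq2, where 29.3% of all genes were higher in edgeR. The log2 fold changes with T3 ran from −0.15 (Snhg5) to 0.21 (Gas5, adjusted p = 0.123 in edgeR), and no host had an unadjusted p under 0.05.

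Other noncoding snoRNA hosts did not move as 1 group under CHX. Of 12 listed, 6 were tested, and 2 rose: Epb41l4aos (1.44 ± 0.13) and Zfas1 (0.42 ± 0.12). Of the other 4, Rian (−0.46 ± 0.08), Snhg20 (−0.66 ± 0.18) and Snhg18 (−0.27 ± 0.11) fell, and Snhg11 (−0.83 ± 0.44) did not pass. The median of these 6 was −0.37, beside 0.06 for all genes and 2.21 for the 5 hosts described above.

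The listed protein-coding snoRNA hosts, most of them ribosomal protein and translation factor genes, went mostly the other way. Of 29 tested, 23 were lower under CHX and 6 were higher, with a median of −0.50. This did not hold for all protein-coding genes with an annotated snoRNA in an intron, of which 75 of 214 were higher and 83 lower, with a median of 0.01. Hspa8, which encodes the chaperone Hsc70, fell by 2.67 on the log2 scale (SE 0.08), from 228 ± 26.5 to 35.9 ± 2.13 CPM (SD, n = 4), and Eef2, the elongation factor that moves the ribosome along the RNA, fell by 0.73 (SE 0.05). Ribosomal protein genes of the list include Rpl10 (−1.22) and Rps20 (−0.86), which averaged 9.23 and 121 CPM in 6 h control. In the same group Rpl4 averaged 678 CPM and Rpl17 averaged 2.05 CPM. Alignments that were not unique were not counted to a gene, and their share was lower under CHX. How much RNA of each gene was thereby missed, and its part in these falls, was not tested. Among the 6 that rose, Nop56 (0.99 ± 0.07), a core protein of box C/D snoRNA particles, and Eif4a2 (0.66 ± 0.05), an RNA helicase of translation initiation, led by adjusted p.

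The proteins that bind snoRNAs were measured as 8 genes, of which 3 rose and 1 fell. With 37% of all genes higher and 30.6% lower, the share that rose is near the background. Nop58, the partner of Nop56 in box C/D particles, rose from 53.5 ± 6.54 to 169 ± 8.84 CPM (SD, n = 4), or 1.66 ± 0.07 on the log2 scale. Dkc1, the pseudouridine synthase of H/ACA particles, rose by 0.17, and Nop10 of the same particles fell by 0.36. Fbl, Snu13, Nhp2 and Gar1 did not pass.

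NMD factors were measured as 16 genes, of which 10 were higher and 1 lower under CHX, with a median of 0.28. Upf3b (1.21 ± 0.09) and Upf2 (1.10 ± 0.08), which join the exon junction complex to the helicase Upf1, Casc3 (1.03 ± 0.05), a component of that complex, and Smg5 (0.94 ± 0.06), which recruits RNA-degrading enzymes, had the smallest adjusted p. Upf1 itself rose by 0.20, and Rnps1 fell by 0.14. Several NMD factor messages are known to be NMD substrates themselves.

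Long noncoding RNAs outside the host lists were divided. Of 13 tested, 3 were higher, namely Pvt1 (1.94 ± 0.11), Neat1 (1.20 ± 0.14) and Ftx (1.07 ± 0.15), and 6 were lower, among them Miat (−1.72 ± 0.24) and Mir17hg (−1.86 ± 0.29). Their median was −0.27. The tests of these lists are the same edgeR fit over all genes, and the adjusted p of every value named as higher or lower in these 5 lists was at most 0.0379.

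**Figure D4:**
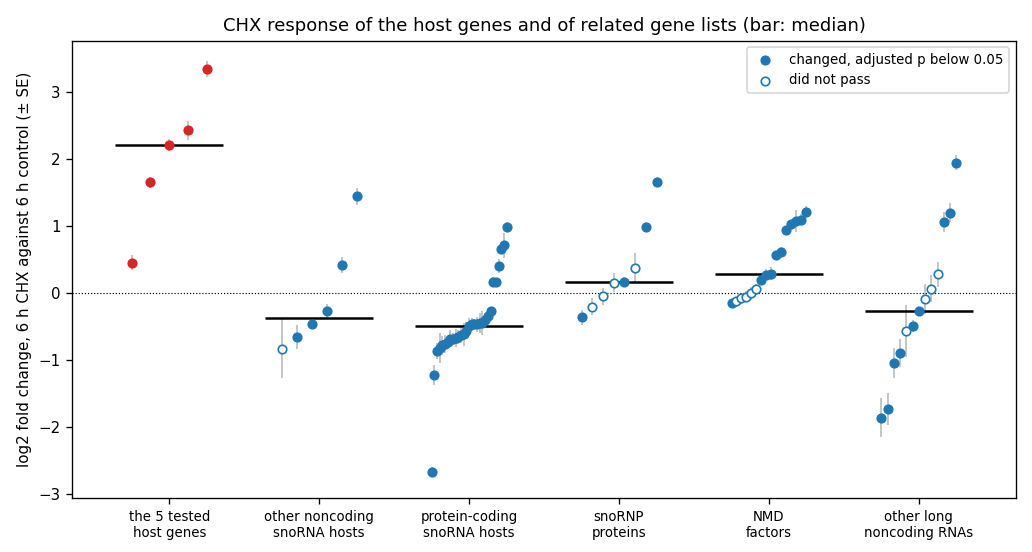
Log2 fold changes between 6 h CHX and 6 h control (vertical axis, with standard errors) of the 5 tested hosts and of 5 related gene lists. Each point is a gene, filled where it passed at an adjusted p below 0.05, and bars are list medians. The hosts' median of 2.21 stands above the medians of the other lists, which run from −0.50 to 0.28, although genes of other lists, such as Nop58 and Pvt1, lie within the range of the hosts.

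The snoRNAs themselves could hardly be seen in these libraries. Of the annotated snoRNA genes inside the 5 tested hosts, those with any count over all 23 libraries were Snora16a with 71 counts, Gm24411 with 38 and Snord50b with 2, and none passed the filter. The level of the snoRNAs was therefore not measurable here, so that a host's RNA and its snoRNA output cannot be compared.

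Across the 23 libraries, Snhg5, Snhg12, Snhg15 and Snhg17 followed each other, with Pearson's r of 0.96 to 0.99 between log2 levels, and Gas5 followed them with r of 0.50 to 0.60. These are descriptions of libraries that share their groups, and most of the shared movement is the CHX groups. With each group's mean removed, r was −0.38 to 0.35 among the 4, 0.58 between Gas5 and Snhg15 and −0.49 between Gas5 and Snhg17. Among 11880 other genes that averaged 5 CPM or more, those most like the mean of the 5 hosts were Exosc10 (Pearson's r 0.993), Rsrc2 (0.993), Ccnl1 (0.992), Hnrnpdl (0.992) and Map3k14 (0.991). Their CHX log2 fold changes were 1.16, 1.64, 2.55, 0.76 and 4.64.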

How the data were processed

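The authors deposited raw read counts by Ensembl gene, 1 file per library. Per the labels' protocols, each library took 200 ng of RNA into a kit without strand information and was read by single reads of 50 nt. Among the tools in the submitters' processing notes are Bowtie and TopHat for alignment and HTSeq for counting, with GRCm38 as the build. The settings and annotation of HTSeq, not given in the sources used here, decide which reads were counted. The 5 closing lines that name no gene, with 3.75 to 5.81% of reads outside features, stayed out of library sizes. Alignments that were not unique (30.7 to 32.9% in CHX libraries, 36.2 to 42.3% in the others) had not been counted to a gene.

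Symbols came from GENCODE M21 (GRCm38), which holds 36345 of the 38293 identifiers. The listed hosts and other gene lists were chosen with earlier results of these data known, so their direction is no independent evidence. In edgeR 4.0.16 (R 4.3.3), filterByExpr with a minimum count of 10 left 16087 genes, TMM scaled the libraries, and all 23 libraries entered 1 fit with a mean for each group (17 residual degrees of freedom, biological coefficient of variation 8.57%). Quasi-likelihood F tests were adjusted by Benjamini-Hochberg over all 16087 genes and called under 0.05. SE is the log2 fold change divided by the square root of F. CPM were computed on TMM-scaled sizes. Groups without overlap and unadjusted p under 0.05 were not counted over all genes, so these have no background share here. Likeness used log2 CPM with a prior count of 2. No 2 libraries of a group were identical or within sampling noise. The fit was tested on simulated counts with known changes.

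All listed hosts were named, with up to 4 genes of each other list by smallest adjusted p under CHX alone, and the 5 most alike genes. Further genes named, the class of noncoding genes with a snoRNA in an intron, the reading frame and start site searches and the ratios between hosts were chosen after the values had been seen. Alternatives were DESeq2 1.42.0, RLE, upper-quartile and total-count scaling, no filter, replicate blocks, lane, only the groups compared, and each library left out. Intervals are 95% and cover the spread between libraries. The result of a single marker gene on its own is not reported here.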

Additional observations from a re-analysis of the deposited data

Results flagged for a closer look

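Snhg5 in 24 h control replicate 2 stood apart from the 3 other libraries of its group, at 11.51 CPM beside 9.79 CPM in the next. The gap was 0.913 of the group's range, above Dixon's 95% critical value for 4 samples. This was 1 of 30 groups of host levels checked, and chance flags about 1 in 20 groups.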

How the results depend on the processing

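Under CHX alone, 5 of 5 hosts were higher under each of the 20 alternatives run. With T3 present, 4 or 5 hosts were called under each of 19 alternatives, the fifth being Gas5, with a log2 fold change of −0.07 to 0.30 that was called in 7 of them; −0.07 was its value with the lane as a covariate. The number of hosts called without each library in turn was 5 to 5 for CHX alone, 4 to 5 with T3 present, 1 to 3 for time without T3, 0 to 1 for time with T3 and 0 to 0 for the other comparisons. Time without T3 gave 0 hosts with the lane as a covariate and 0 without 24 h control replicates 2 and 4, where the log2 fold changes were 0.27 for Gas5, 0.25 for Snhg12 and 0.30 for Snhg17. With the lane covariate Snhg12 (0.23) and Snhg17 (0.34) also kept their direction, whereas Gas5, called at 0.28 in the report, went to −0.01. Time with T3 gave 1 host, Gas5, with upper-quartile factors (0.29) and with library totals (0.28); the same gene was the 1 host called without 24 h T3 replicate 2 (0.32), and Snhg15 the 1 host called without 24 h T3 replicate 3 (0.36). The difference of the CHX response gave 1 host, Snhg15, without 6 h control replicate 4 and 24 h T3 replicate 1.

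Other values that turned sign had not been called. For time without T3 this was Snhg5 (−0.11) with the lane as a covariate, with RLE factors (−0.01), with DESeq2 (−0.01) and without 24 h control replicates 2 and 4 (−0.04). For time with T3 these were Gas5 (−0.03) and Snhg17 (−0.19) with the lane as a covariate, Snhg12 with upper-quartile factors (0.02) and library totals (0.01), and Snhg15 (−0.04) with 24 h T3 replicate 1 left out together with 6 h CHX replicate 4 or 6 h control replicate 4. Under the same pairs of omissions, Gas5 for T3 at 24 h was −0.13. The T3 effect at 24 h minus 6 h was 0.02 for Snhg15 with the replicate block and 0.16 with the lane as a covariate. Without each library in turn, the ranges that crossed 0 were −0.13 to 0.17 for Gas5 in T3 at 24 h, −0.04 to 0.10 for Snhg5 in T3 at 6 h, −0.01 to 0.02 for Snhg17 in T3 under CHX, −0.05 to 0.04 for Snhg5 in time without T3, −0.04 to 0.36 for Snhg15 and −0.13 to 0.23 for Snhg17 in time with T3, and −0.26 to 0.03 for Gas5 and −0.24 to 0.16 for Snhg15 in the T3 effect at 24 h minus 6 h. The cause was not tested for any of these.

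Same-numbered libraries did not deviate together in every pair of any comparison (correlations of 0.001 to 0.238 for CHX alone, for example). For CHX alone the mean correlation was 0.122 for the same number and −0.038 for different numbers. For time with T3 these means were −0.406 and 0.161. Such correlations cannot settle whether same-numbered libraries share a culture. The labels also give each library a letter, A to D, which departs from the number in 24 h T3 (A, C and D). Libraries with the same letter did not deviate together in every pair either (correlations of −0.140 to 0.102 for T3 at 24 h). A replicate block by letter gave the same counts of hosts as the report's fit in all 9 comparisons, and 213 genes beside 135 for the T3 effect at 24 h minus 6 h and 368 beside 196 for the difference of the CHX response. With the replicate block, CHX alone still gave 5 hosts and 10932 genes beside 10862, and the difference of the CHX response gave 381 genes beside 196. Gas5 with T3 present was called under the block (0.23, adjusted p = 0.0456, edgeR). Counts over all genes ranged over the alternatives from 30 to 966 for the difference of the CHX response (196 in the report's fit), 349 to 1191 for T3 at 6 h (606), 138 to 660 for T3 under CHX (208), 401 to 1557 for T3 at 24 h (1140), 32 to 521 for the T3 effect at 24 h minus 6 h (135), 4414 to 9874 for time without T3 (9105) and 5409 to 9343 for time with T3 (9259). With 1 to 11 counts per library, a change of Snhg3 could not be tested.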

Other observations

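Noncoding genes that the annotation shows with a snoRNA inside an intron, apart from the 10 listed at the start, were counted as a class after the values had been seen. The class includes Epb41l4aos and Zfas1, called higher, and Rian and Snhg18, called lower, whose values are given above. Of 15 tested, 6 were higher and 3 lower under CHX alone in edgeR, or 40% and 20%, beside 37% and 30.6% of all genes. The largest change was that of 1810032O08Rik, which holds Snord1b and Snord1c, from 3.00 ± 0.291 to 26.3 ± 1.38 CPM (SD, n = 4), a log2 fold change of 3.12 ± 0.14. AA465934, with Snord7, changed by 1.30 ± 0.20, 2410006H16Rik, with Snord49a, Snord49b and Snord65, by 0.54 ± 0.13, and 1110038B12Rik, with Snord52, by 0.47 ± 0.09. Rab26os, with Snord60, changed by −0.71 ± 0.23. Of 214 tested protein-coding genes with a snoRNA in an intron, 35% were higher and 38.8% lower.

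In 6 h control replicate 4, Gas5 was the highest of its group (84.5 CPM) and Snhg17 the lowest (6.36 CPM), and the same held in 24 h T3 replicate 1, with 110 and 7.75 CPM. The same libraries had the highest shares of alignments that were not unique among the 23, at 42.1% and 42.3%. A part of this in the pattern was not tested.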
